A study of Mus musculus with 12 samples.

Results

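Long intergenic noncoding RNAs (lincRNAs) are transcripts without a recognised coding sequence from genes that lie apart from protein-coding genes. They are mostly capped and polyadenylated like messenger RNAs, and many are spliced. Most are made at low levels, many are retained in the nucleus, and some host small RNAs in their introns. In dendritic cells and macrophages a few of them, such as AW112010, are known to be induced by inflammatory signals. The genes described here are the 142 genes with the lincRNA type in the GENCODE M21 annotation chosen by a mean level of at least 5 CPM (each count taken relative to the total of its column) over 12 libraries, without the nuclear RNAs Malat1 and Neat1. They came from 5097 lincRNA genes among the 52355 genes of the count table. Of those 5097, 3377 had a count above 0 in some library. Because the level chose the 142 genes, levels are given as a description, without a test.

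RNA came from cells labelled CD11c, a marker of dendritic cells and some macrophages, taken from the inguinal lymph node of mice. The 3 groups had 4 libraries each. The first group came from healthy mice, the second from mice whose inguinal node drained a KPC tumor grown under the skin, and the third from such tumor-bearing mice that were also given a CD40 agonist, which stimulates a receptor that activates antigen-presenting cells. KPC is a name used for a mouse pancreatic cancer model. Not stated are strain, sex, age, the agonist's form, dose and timing, and whether nodes were pooled: the sources used here give none of these. Each library title opens with 1 of 4 prefixes, and every prefix occurs once in each group. Libraries are called replicates 1 to 4 after their prefix, and groups were compared within prefix. Since no label ties replicates to separate mice, the p-values speak only of how these libraries vary, and that variation may be technical.

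The libraries held 32626784 to 56320661 estimated counts. Itgax, the gene of CD11c, stood at 641 to 1130 CPM in the 12 libraries. The summed level of 10 T cell markers was 278 to 495 CPM in healthy, 252 to 442 CPM in tumor-draining and 211 to 410 CPM in agonist libraries, against 9654 to 12827, 9959 to 12572 and 6430 to 8302 CPM for 13 conventional dendritic cell markers. In the same order of groups, 10 B cell markers summed to 660 to 1130, 773 to 1607 and 661 to 1240 CPM. For 9 plasma cell markers the sums were 302 to 401, 492 to 1148 and 400 to 681 CPM. For 10 monocyte and macrophage markers they were 3720 to 4816, 4326 to 4925 and 5734 to 7427 CPM. In bulk RNA, fewer cells of a type and less of an RNA per cell cannot be told apart. Replicates 1 and 2 stood above replicates 3 and 4 within each group for the nuclear RNA Malat1, at 11488 to 23486 CPM against 4528 to 12171 CPM.

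Sequence was read for the genes on which the results below turn. Of the 142 genes, 50 matched a RefSeq promoter (GRCm38.p6, 250 bases before to 50 after a transcript start) by symbol and position, with 63 promoters in all. The first 3 below belong to genes that were higher with the agonist, and capitals mark the 50 transcribed bases.
AW112010: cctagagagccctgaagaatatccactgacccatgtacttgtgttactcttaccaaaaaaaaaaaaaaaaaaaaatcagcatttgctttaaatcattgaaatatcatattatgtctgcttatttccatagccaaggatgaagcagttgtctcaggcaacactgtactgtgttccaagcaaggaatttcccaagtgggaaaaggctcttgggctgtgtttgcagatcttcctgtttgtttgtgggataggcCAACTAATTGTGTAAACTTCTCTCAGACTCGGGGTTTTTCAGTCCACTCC
Snhg12: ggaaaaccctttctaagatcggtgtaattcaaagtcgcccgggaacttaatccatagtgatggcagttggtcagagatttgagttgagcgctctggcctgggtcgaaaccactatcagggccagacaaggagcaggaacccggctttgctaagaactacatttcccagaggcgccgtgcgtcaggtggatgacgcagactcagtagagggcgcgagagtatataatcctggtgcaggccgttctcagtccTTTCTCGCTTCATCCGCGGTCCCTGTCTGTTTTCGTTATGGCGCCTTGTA
9330175E14Rik: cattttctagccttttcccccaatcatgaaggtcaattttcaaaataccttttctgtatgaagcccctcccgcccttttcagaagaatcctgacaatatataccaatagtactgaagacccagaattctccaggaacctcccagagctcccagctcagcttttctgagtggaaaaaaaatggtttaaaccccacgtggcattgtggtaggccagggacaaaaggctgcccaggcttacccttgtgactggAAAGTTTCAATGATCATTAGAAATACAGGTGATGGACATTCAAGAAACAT
In the promoter of Gm36161, which was also higher with the agonist, capitals mark instead the match to the core of the interferon-stimulated response element, 41 bases into the transcript.
Gm36161: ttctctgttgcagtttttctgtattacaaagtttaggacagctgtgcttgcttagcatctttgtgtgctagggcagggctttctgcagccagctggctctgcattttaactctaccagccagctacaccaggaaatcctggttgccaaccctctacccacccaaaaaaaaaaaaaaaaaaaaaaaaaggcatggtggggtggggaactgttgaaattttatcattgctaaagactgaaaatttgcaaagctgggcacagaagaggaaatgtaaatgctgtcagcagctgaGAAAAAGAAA
These windows lie at chr19:11050517-11050816 on the minus strand for AW112010, chr4:132308428-132308727 on the plus strand for Snhg12, chr8:94435054-94435353 on the minus strand for 9330175E14Rik and chr13:120010092-120010391 on the plus strand for Gm36161.

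On either strand, this core (GAAA, any 2 bases, GAAA) was in 2 of the 63 promoters (3.17%) against 3.44% of the 32851 promoters of the table. TTCNNNGAA, the gamma-activated site, was in 4 (6.35%) against 8.30%, TGANTCA, an AP-1 site, in 1 (1.59%) against 7.81%, and TATAAA in 5 (7.94%) against 13.6%. Of the 10 promoters of genes higher with the agonist than in tumor-draining nodes, 1 held the response element core (Gm36161), 1 held TTCNNNGAA (Dubr) and 2 held TATAAA (Gm42031 and Gdap10). AW112010, Snhg12 and 9330175E14Rik held none of the 4 motifs in this window. A window could lie inside the GENCODE M21 gene, as that of AW112010 did (gene at chr19:11047612-11055808, minus strand). The bases before the GENCODE M21 start of AW112010 were not searched. A match is a description of the letters, not of a binding site.

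Among the 142 genes, 8 carry small RNA genes on their own strand. Their mature microRNAs are shown for 3 hosts because each host's level is measured here while the microRNAs themselves are not, and capitals mark the seed (bases 2 to 8). Mir142hg (chr11:87755577-87757270, plus strand) gives the blood-cell microRNA miR-142. 6720427I07Rik, chosen after its features were seen, holds let-7d, let-7f-1 and let-7a-1 within it, and their 5′ arms share 1 seed. Ftx (chrX:103560907-103623790, minus strand), a transcript of the X inactivation center, holds miR-421 and miR-374b.
mmu-miR-142a-5p: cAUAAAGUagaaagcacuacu
mmu-miR-142a-3p: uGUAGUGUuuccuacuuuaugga
mmu-let-7a-5p: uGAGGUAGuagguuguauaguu
mmu-let-7f-5p: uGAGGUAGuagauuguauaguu
mmu-let-7d-5p: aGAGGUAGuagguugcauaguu
mmu-miR-421-5p: cUCAUUAAauguuuguugaau
mmu-miR-374b-5p: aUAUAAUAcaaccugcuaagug
The mature sequences are from RefSeq (GRCm38.p6). Snhg12 hosts Snora16a, Snora44, Snora61 and Snord99, and Snhg6 hosts Snord87, guides for the chemical modification of ribosomal and other RNAs.

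The 142 genes spanned means of 5.17 to 7914 CPM, and 1 gene held much of their total. Gm26917 (chr17:39843013-39846341, plus strand) had a mean of 7914 CPM, and the next gene had 854 CPM. Its end lies 12 bases before Rn18s-rs5, an 18S ribosomal RNA pseudogene in RefSeq that overlaps part of Gm42418 (chr17:39846958-39848788, plus strand), another of the 142 genes, at 359 CPM. Gm26917 alone held 41.2% to 78.6% of the counts of the 142 genes, by library. The group as a whole held 0.848% to 2.23% of a library's counts, and the 140 genes other than Gm26917 and Gm42418 summed to 4169 to 6452 CPM. The highest sums over the 142 genes, in agonist replicates 2 and 3, went with the highest levels of Gm26917. Its TMM-normalised level was 4329, 8363, 11015 and 6687 CPM in healthy replicates 1 to 4, 5209, 7699, 4400 and 4380 CPM in tumor-draining libraries, and 7502, 11901, 19278 and 4784 CPM in agonist libraries. The groups overlapped, and the gene was not called in any comparison.

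**Figure D1:**
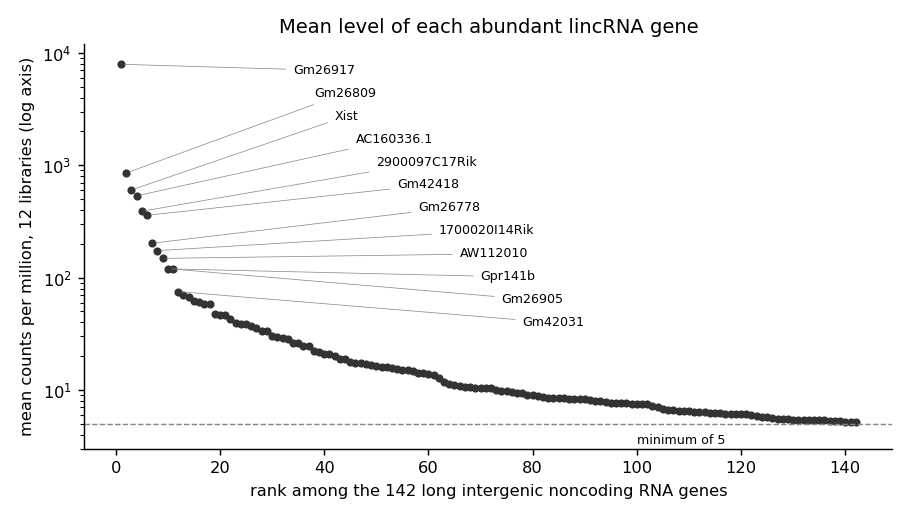
Mean level of each of the 142 lincRNA genes in CPM over 12 libraries (log axis) by rank, with the 12 highest named and the minimum of 5 as a dashed line. Gm26917 at 7914 CPM stands above Gm26809 at 854 CPM, and 70 of the 142 genes lie below 10 CPM.

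After Gm26917 came Gm26809 (854 CPM), Xist (603 CPM), AC160336.1 (535 CPM) and 2900097C17Rik (390 CPM). Xist is the RNA that coats the inactive X chromosome, and 2900097C17Rik is Norad, a cytoplasmic RNA that binds Pumilio proteins. Gm26778 had 203 CPM, 1700020I14Rik (Oip5os1, known as Cyrano, which binds miR-7) 174 CPM, AW112010 148 CPM, Gpr141b 120 CPM, Gm26905 119 CPM and Gm42031 75.1 CPM. The median of the 142 genes was 10.4 CPM, with 11 genes at 100 CPM or more. Just inside the minimum lay Gm26581 (5.20 CPM), A230057D06Rik (5.18 CPM) and Gm34788 (5.17 CPM), and just outside it Gm47701 (4.90 CPM), Gm5784 (4.89 CPM) and Mirt1 (4.84 CPM). Per length, in summed TPM, the authors' length-scaled transcript unit, the median was 5.85 with a range of 0.614 to 1700.1, and AW112010 (203 TPM) stood above Xist (38.0 TPM), the reverse of their order in CPM.

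The annotation of many of the 142 genes limits what a count can be assigned to. The transcript that held most counts of a gene had 1 exon in 24 genes, 2 in 64 and 3 or more in 54, with a median length of 2475 bases. In 141 genes it was the same transcript in all 3 groups, all but Gm46430. Of the 142 genes, 91 had only 1 transcript, so only the 51 with several could differ. At least 100 bases of that transcript occurred with at least 95% identity in another gene's transcript for 72 genes, and this covered over 50% of the transcript in 30. Pairs with such a match include Gm36161 with Gm21188, over 100% of the Gm36161 transcript, and 2900097C17Rik with Gm7292, over 51.6% of the 2900097C17Rik transcript. Gm29408, a 216-base transcript chosen after this comparison, matched Gm26809 over 100% of its length at 95% identity or more. The longest exact run the 2 share is 83 bases (capitals). Estimated counts of both may therefore be split between them.
Gm29408-201: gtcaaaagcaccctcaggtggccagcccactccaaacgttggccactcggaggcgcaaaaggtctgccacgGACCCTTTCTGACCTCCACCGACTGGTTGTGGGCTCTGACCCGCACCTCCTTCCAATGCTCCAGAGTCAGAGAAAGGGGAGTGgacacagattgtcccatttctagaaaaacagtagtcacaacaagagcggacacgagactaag
This sequence is from the GENCODE M21 transcripts. RefSeq lists 59 of the 142 symbols, 51 as lncRNA, 5 as protein-coding (Gpr141b, Tmem250-ps, Gm46430, 1810058I24Rik and Gm32856) and 3 as pseudogenes, here named for their listed type. A protein-coding gene of GENCODE M21 overlapped 36 of the 142 genes, 29 on the opposite and 7 on the same strand. The library kit was directional, but no source used here says whether counting used the strand, so reads of an overlapping pair cannot be told apart.

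In tumor-draining against healthy nodes, most of the 142 genes stood lower. All 142 genes were among the 23729 genes tested with edgeR's quasi-likelihood test with the prefix as a block (Benjamini-Hochberg adjusted p under 0.05). Of the 142, 23 were lower (16.2%) and 1 was higher (0.704%), against 2.28% lower and 4.02% higher of all genes tested. Among all genes at 5 CPM or more, 2.14% were lower and 6.90% higher. The log2 fold change was below 0 in 110 of the 142, with a median of -0.20 against -0.02 over all genes tested. Without the block 0 of the 142 were called, and 9 had an unadjusted p under 0.05 there (53 with the block). Over all 23729 genes tested, 1842 had such a p without the block and 5957 with it. Leaving out 1 library moved the number called lower from 23 to between 2 (without healthy replicate 3) and 26, with 5 without healthy replicate 1, 8 without healthy replicate 2, and 10, 7, 7 and 8 without tumor-draining replicates 1 to 4.

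Within each prefix the median log2 ratio of the 142 genes was -0.12, -0.23, -0.17 and -0.18 in replicates 1 to 4, and 103, 113, 93 and 105 of the genes lay below 0. Over all genes tested the median was -0.01, -0.04, 0.01 and 0.03. The genes were thus lower on balance in all 4 prefixes. In the blocked edgeR test over all 4 prefixes, other noncoding types at 5 CPM or more also had more lower than higher calls: antisense genes had 13 lower and 1 higher of 66 with a median log2 fold change of -0.23, and processed transcripts had 7 lower and 1 higher of 62 with a median of -0.16. Protein-coding genes at that level had 120 lower and 753 higher of 10512, a median of 0.09. Among 1365 lincRNA genes that lay below 5 CPM and passed the filter, 23 were lower and 3 higher, with a median of -0.33. The difference between these classes was not tested.

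**Figure D2:**
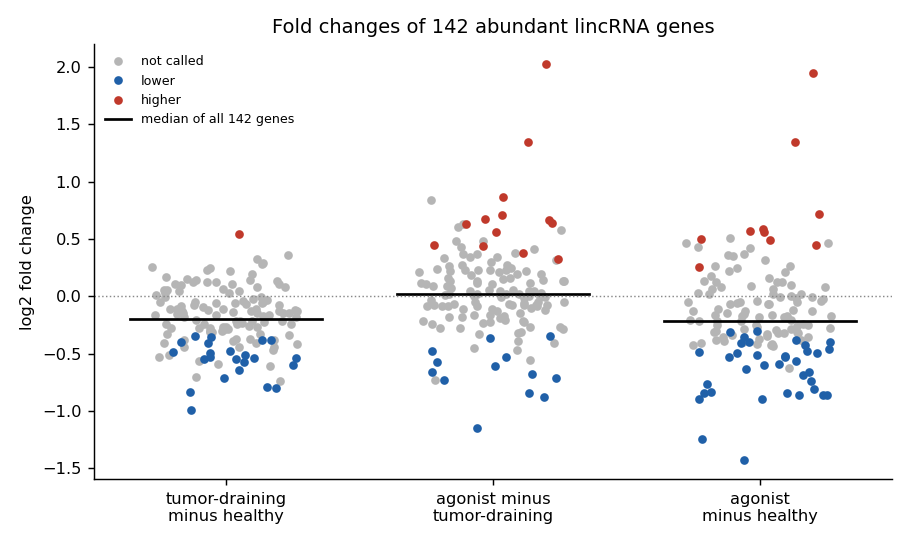
Log2 fold changes of the 142 lincRNA genes in the 3 comparisons, each point a gene, with genes called higher or lower in colour and a bar at the median. The medians lie at -0.20, 0.02 and -0.22, and the comparisons share libraries.

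Genes that fell included Xist (chrX:103460366-103483254, minus strand). It stood at 980, 819, 498 and 489 CPM in healthy replicates 1 to 4, at 826, 639, 390 and 333 CPM in tumor-draining and at 764, 619, 374 and 339 CPM in agonist libraries. Every tumor-draining library was below the healthy library of its prefix, while the groups overlapped, because replicates 1 and 2 were high in each group. Its log2 fold change was -0.38 ± 0.07 (SE, adjusted p = 0.011, 0.81 without the block), and the call was lost without healthy replicate 3 (adjusted p = 0.061).

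Gm36723 (chr12:25303940-25471979, plus strand) was 1 of 5 genes of the 142 for which all tumor-draining libraries lay below all healthy ones, against 1.69% of all genes tested, and 0 lay above, against 2.57%. It had 27.1, 26.5, 23.1 and 21.6 CPM in healthy and 18.8, 18.6, 15.1 and 15.4 CPM in tumor-draining libraries, a log2 fold change of -0.54 ± 0.10 (edgeR adjusted p = 0.013, 0.34 without the block). The call was lost without healthy replicate 1, healthy replicate 3 or tumor-draining replicate 2, with adjusted p up to 0.067. Gm48544 (chr13:13034858-13038936, plus strand), which did not overlap either, had 9.04, 9.07, 7.58 and 6.80 CPM in healthy and 5.12, 6.09, 5.13 and 5.16 CPM in tumor-draining libraries. Its log2 fold change was -0.60 ± 0.16 (edgeR adjusted p = 0.044), and the call was lost in 10 of the 12 leave-outs.

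Gm26603 (chr2:52859723-52863516, minus strand) had 41.4, 37.1, 14.2 and 19 CPM in healthy and 24.4, 20.6, 7.98 and 11.2 CPM in tumor-draining libraries. The fall was seen in all 4 prefixes and the groups overlapped. Its log2 fold change of -0.80 ± 0.12 had an edgeR adjusted p of 0.0042, which stayed at or below 0.038 in all 12 leave-outs and was 0.68 without the block. Lncpint (chr6:31082565-31220488, minus strand), a p53-induced RNA, had 24.5, 22.7, 11.1 and 16 CPM in healthy and 17.2, 17.2, 6.84 and 10.9 CPM in tumor-draining libraries. Its log2 fold change was -0.53 ± 0.13 (edgeR adjusted p = 0.035), with the call lost in 8 of the 12 leave-outs.

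The largest falls by log2 fold change were those of Gm20465 (-0.99), Gm13833 (-0.84), Gm26603 and Gm26772 (-0.80 each), Gm1965 (-0.72), Gm43994 (-0.64), Gm48544, Gm31392 (-0.57), A530010L16Rik and Gm14565 (-0.55 each). Of these, only Gm26603 kept its call in all 12 leave-outs. Gm26905 fell by 0.50 on the log2 scale, with the call lost in 6 of the 12 leave-outs (edgeR adjusted p up to 0.087). Near-identical sequence in 63 other genes covers 99.6% of its main transcript. The single gene that rose was Gm4316 (chr8:123165255-123178765, plus strand), with 38.6, 49.6, 72.3 and 73.8 CPM in healthy and 58.9, 72.8, 137 and 77.1 CPM in tumor-draining libraries. It was higher in all 4 prefixes, by 0.54 ± 0.13 in log2 (edgeR adjusted p = 0.038), but lost the call in 9 of the 12 leave-outs and under scaling by column totals. Gm4316 overlaps the coding gene Gm20388 on the same strand. Near-identical sequence in 12 other genes covers 51.0% of its main transcript, so its counts may be shared with other genes.

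The genes that fell in tumor-draining nodes were mostly those that differed between the replicates. Of the 142, 74 had a mean in replicates 1 and 2 at least 0.5 log2 above that in replicates 3 and 4, and 19 of these 74 were called lower and 0 higher, with a median log2 fold change of -0.33. Of the other 68, 4 were lower and 1 was higher, with a median of -0.04. The median of this replicate ratio was 0.53 over the 142 genes, -0.23 over protein-coding genes at 5 CPM or more and 0.05 over all genes tested. Among 537 other genes at 5 CPM or more with such a ratio, 116 were lower (21.6%) and 3 higher. Depth and mitochondrial counts were split the same way. Replicates 1 and 2 held 32626784 to 42475639 counts with 2.58% to 4.75% mitochondrial, and replicates 3 and 4 held 48371652 to 56320661 with 1.23% to 2.20%. The nuclear RNAs moved with it. Malat1 had 21983, 22495, 7965 and 8467 CPM in healthy, 16035, 11488, 4528 and 6635 CPM in tumor-draining and 23486, 20629, 7730 and 12171 CPM in agonist libraries. It was lower in tumor-draining nodes by -0.65 ± 0.12 in log2 (edgeR adjusted p = 0.012, 0.77 without the block), and Neat1 by -0.49 ± 0.10 (adjusted p = 0.017, 0.78 without the block). The part of these replicate differences in the falls was not tested.

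**Figure D3:**
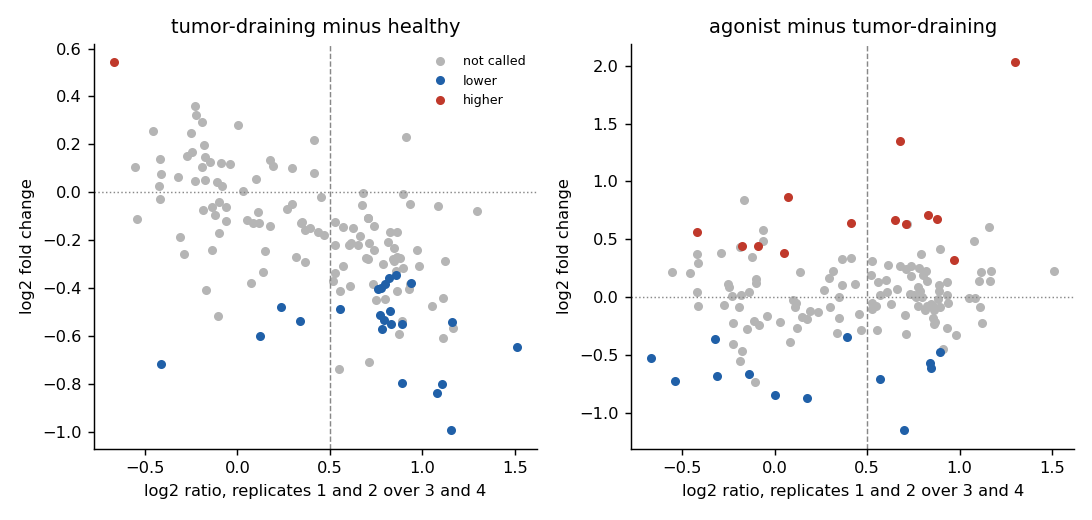
Log2 fold change of each of the 142 genes (left: tumor-draining minus healthy; right: agonist minus tumor-draining) against the log2 ratio of its mean level in replicates 1 and 2 over replicates 3 and 4, with 0.5 as a dashed line. In the left panel 19 of the 23 genes called lower lie right of the line; in the right panel genes called in either direction lie on both sides.

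T cell markers also moved with this comparison, with 5 of the 10 lower (among them Cd3d, Cd3g and Lef1) and 1, Tcf7, higher in tumor-draining nodes. Of 20 genes of the type I interferon response, 16 were higher and 1 lower, and of 9 plasma cell markers 6 were higher. Of 9 tested neutrophil markers 5 were higher and 0 lower, with a median log2 fold change of 2.12, and their sum was 50.3 to 173 CPM against 30.1 to 43.9 CPM in healthy libraries, without overlap. No marker of these lists was at 0 in every library, and their part in the lincRNA results was not tested.

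With the CD40 agonist against tumor-draining nodes without it, the 142 genes moved in both directions. Of the 142, 13 were higher (9.15%) and 13 lower (9.15%), against 6.74% higher and 6.58% lower of all genes tested, and the median log2 fold change was 0.02, the same as over all genes. Without the block 2 were higher, AW112010 and Snhg12, and 0 were lower (1.85% and 0.83% of all genes tested). In that fit 22 of the 142 had an unadjusted p under 0.05, against 3059 of the 23729 genes tested. Leaving out 1 library gave 8 (without tumor-draining replicate 1 or 4) to 15 higher, and 6 (without tumor-draining replicate 1 or agonist replicate 3) to 15 lower, with 8 lower without tumor-draining replicate 3 or agonist replicate 1. In 5 genes all agonist libraries lay above all tumor-draining ones and in 3 below, against 4.86% and 3.40% of all genes tested.

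AW112010 (chr19:11047612-11055808, minus strand), an inflammation-induced RNA whose open reading frame is known to be translated in macrophages, was the most abundant gene of the 142 that rose. It had 147, 104, 77.6 and 63.0 CPM in healthy, 128, 86.3, 90.6 and 73.7 CPM in tumor-draining and 406, 218, 189 and 186 CPM in agonist libraries. All 4 agonist libraries lay above every other library, and healthy and tumor-draining libraries overlapped. The log2 fold change over tumor-draining nodes was 1.35 ± 0.10 (edgeR adjusted p = 3.1e-05, 0.022 without the block), with 1.26 to 1.44 over the leave-outs.

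Gm47662 (chr13:32997062-33001750, plus strand) had the largest rise. It had 8.82, 9.80, 2.64 and 2.38 CPM in healthy, 9.44, 6.59, 2.08 and 3.52 CPM in tumor-draining and 30.8, 24.7, 12.4 and 13.6 CPM in agonist libraries. The agonist libraries did not overlap with the others, although replicates 1 and 2 were the high ones in every group. The log2 fold change was 2.03 ± 0.20 (edgeR adjusted p = 0.00016), while without the block the adjusted p was 0.11. In GENCODE M21 it ends 1500 bases before the start of Serpinb9, on the same strand, which encodes an inhibitor of granzyme B. In RefSeq the Serpinb9 gene covers the position of Gm47662, so the 2 genes overlap there. Serpinb9 had 245, 259, 209 and 233 CPM in tumor-draining and 503, 570, 433 and 613 CPM in agonist libraries, a log2 fold change of 1.16 ± 0.12 (edgeR adjusted p = 0.00019, 0.0036 without the block). Reads of Gm47662 could therefore belong to either gene, and this was not tested.

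Snhg12 (chr4:132308623-132311024, plus strand), a host of small nucleolar RNAs (snoRNAs), had 12.5, 10.3, 8.96 and 10.7 CPM in healthy, 9.35, 7.72, 8.21 and 7.34 CPM in tumor-draining and 16.8, 12.4, 15.4 and 14.9 CPM in agonist libraries. Agonist libraries lay above all tumor-draining ones. The log2 fold change was 0.87 ± 0.11 (edgeR adjusted p = 0.00038, 0.0071 without the block). Of 15 tested snoRNA host genes, 2 of them among the 142, 4 rose with the agonist and 0 fell: Snhg12, Gas5 (0.78), Zfas1 (0.82) and Snhg1 (0.28), with a median log2 fold change of 0.28. The other of the 142, Snhg6, had a log2 fold change of 0.34 (edgeR adjusted p = 0.099). None of the 15 was called in tumor-draining against healthy nodes by the blocked edgeR test.

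A530010L16Rik (chr8:122760045-122763021, minus strand) was lower in tumor-draining nodes and higher with the agonist. It had 22.6, 19.7, 10.7 and 10.2 CPM in healthy, 17, 12, 6.23 and 8.43 CPM in tumor-draining and 22.5, 18.3, 12.2 and 15.3 CPM in agonist libraries. Every prefix showed both steps while the groups overlapped. The log2 fold changes were -0.55 ± 0.12 (edgeR adjusted p = 0.025, lost in 6 of 12 leave-outs) and 0.71 ± 0.12 (adjusted p = 0.0026, 0.44 without the block). The 2 comparisons share the tumor-draining libraries. Gm4316 took the opposite course, with 34.6, 62.0, 78.0 and 64.0 CPM in agonist libraries and a fall of -0.53 ± 0.13 in log2 from tumor-draining nodes (adjusted p = 0.023, lost in 5 of 12 leave-outs).

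**Figure D4:**
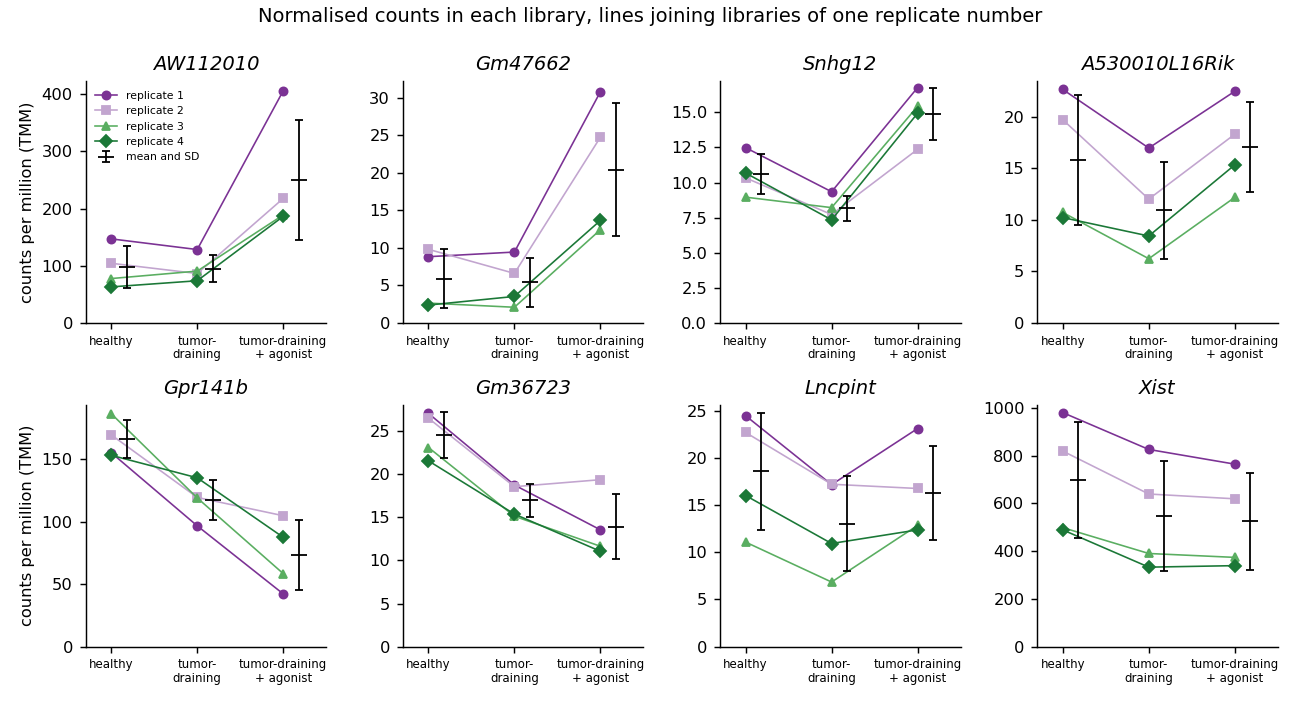
TMM-normalised CPM of 8 lincRNA genes in each of the 12 libraries, with 1 line per replicate number and the mean and SD of each group (n = 4) beside the points. AW112010 and Gm47662 are highest in the agonist libraries, Gpr141b and Gm36723 are highest in the healthy libraries, and in Xist and Lncpint replicates 1 and 2 lie above 3 and 4 in each group.

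Of the other genes that rose, 9330175E14Rik (chr8:94422898-94435103, minus strand) had 16.7, 14.1, 7.48 and 10.3 CPM in tumor-draining and 23.4, 21.2, 15.0 and 15.6 CPM in agonist libraries. It was higher in all 4 prefixes by 0.66 ± 0.10 in log2 (edgeR adjusted p = 0.0012, 0.29 without the block). It overlaps Nlrc5, a transactivator of MHC class I genes, on the opposite strand, and Nlrc5 rose by 0.56 ± 0.10 (adjusted p = 0.0027). Gm36161 (chr13:120010390-120018931, plus strand) had 46.4, 29.1, 31.5 and 25.8 CPM in tumor-draining and 71.1, 49.2, 49.2 and 37.7 CPM in agonist libraries, a log2 fold change of 0.64 ± 0.08 (adjusted p = 0.00040, 0.17 without the block). AU020206 (chr7:75769038-75782099, minus strand) had 61.2, 57.5, 73.6 and 62.7 CPM in tumor-draining and 79.2, 78.3, 91.4 and 97.8 CPM in agonist libraries. Its groups did not overlap, but its log2 fold change of 0.44 ± 0.12 (adjusted p = 0.032) lost the call in 7 of 12 leave-outs. The remaining risers were Gm13067 (0.68), Gm26546 (0.63), Gm42031 (0.56), 2900052N01Rik (0.45) and, named here to complete the count, Dubr (0.38) and Gdap10 (0.32). The call was lost in 9 of 12 leave-outs for Gm13067 (adjusted p up to 0.12) and in 5 for 2900052N01Rik.

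Among the genes that fell with the agonist, F730311O21Rik changed most in log2. F730311O21Rik (chr1:132342023-132349626, plus strand) had 8.38, 8.06, 8.23 and 7.11 CPM in healthy, 7.90, 12, 4.78 and 4.59 CPM in tumor-draining and 4.02, 5.73, 1.88 and 1.84 CPM in agonist libraries. All agonist libraries lay below all healthy ones but overlapped with tumor-draining ones. The log2 fold change from tumor-draining nodes was -1.15 ± 0.24 (edgeR adjusted p = 0.0096, 0.16 without the block). Gm34084 (chr13:44472426-44504548, minus strand) had 8.75, 6.74, 7.75 and 9.55 CPM in tumor-draining and 5.73, 4.89, 3.46 and 4.15 CPM in agonist libraries, without overlap, and a log2 fold change of -0.85 ± 0.17 (adjusted p = 0.0060, 0.056 without the block). Its nearest coding gene is Jarid2, a cofactor of the Polycomb complex that methylates histone H3, at 224926 bases, which fell by -0.69 ± 0.06 in log2 (adjusted p = 8.7e-05).

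AI504432 (chr3:107039504-107054347, plus strand) begins 1434 bases past the end of Kcna3, a potassium channel of lymphocytes. It had 13.0, 20.5, 23.2 and 20.2 CPM in tumor-draining and 8.06, 14, 10.8 and 15.2 CPM in agonist libraries, a log2 fold change of -0.68 ± 0.13 (edgeR adjusted p = 0.0058, 0.12 without the block). Kcna3 fell by -0.48 ± 0.11 (adjusted p = 0.011). C530050E15Rik (chr13:24631918-24638567, minus strand), which overlaps Ripor2 on the opposite strand, fell by -0.71 ± 0.15 (adjusted p = 0.0070), and Ripor2 by -0.76 ± 0.06 (adjusted p = 3.7e-05). Gm26778 (chr14:102978220-102982528, plus strand), the most abundant gene that fell, had 206, 186, 246 and 254 CPM in tumor-draining and 184, 138, 187 and 182 CPM in agonist libraries, a log2 fold change of -0.37 ± 0.07 (adjusted p = 0.0051, 0.33 without the block). It overlaps the coding gene Kctd12 on the opposite strand, and Kctd12 was also called lower. Reads of this pair cannot be told apart. The other falls by log2 fold change were those of 2310031A07Rik (-0.88), Gm29562 (-0.73), 1700009J07Rik (-0.66), Gm26581 (-0.61), 9530059O14Rik (-0.57), Gm4316 and, named here to complete the count, Gm17275 (-0.48) and Gm45322 (-0.35). Of the 13 genes that fell, calls were lost in 6 of 12 leave-outs for 2310031A07Rik, 5 for 9530059O14Rik and Gm4316 each, and 3 for 1700009J07Rik and Gm26581 each.

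The protein-coding gene nearest to each of the 142 genes was taken from GENCODE M21, which gave 137 genes, 112 of them tested. Of these 112, 13 were higher and 17 lower with the agonist than in tumor-draining nodes. Of protein-coding genes at 5 CPM or more, 11.3% were higher and 12.4% lower in this comparison. Beside the 13 lincRNA genes that rose, the nearest coding gene was higher in 5, not called in 7 and not tested in 1, and lower in 0. Beside the 13 that fell, it was lower in 6, higher in 1, not called in 5 and not tested in 1. The 5 pairs that both rose were Gm47662 and Serpinb9, 9330175E14Rik and Nlrc5, Gm13067 and Gpr157, Gm26546 and Gnptab, and Gdap10 and Nampt, of which Gm13067 lost its call in most leave-outs. The exception was F730311O21Rik, whose neighbour Tmcc2 rose by 0.49 ± 0.13 in log2 (edgeR adjusted p = 0.030). In 6 of these 12 pairs with both genes called the 2 genes overlap in GENCODE M21, and Gm47662 and Serpinb9 overlap in RefSeq, so shared reads cannot be told apart from shared direction there. With the agonist against healthy nodes, which shares the agonist libraries, both genes were called in 14 pairs, 11 in the same direction and 3 in opposite ones. The 3 were Gm42031, higher beside a lower Zfp791, and Gm36723 and Gm29562, lower beside a higher Id2 and Trim43c. In tumor-draining against healthy nodes, no neighbour of the 24 called genes was called by the same test, with 18 not called and 6 not tested.

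**Figure D5:**
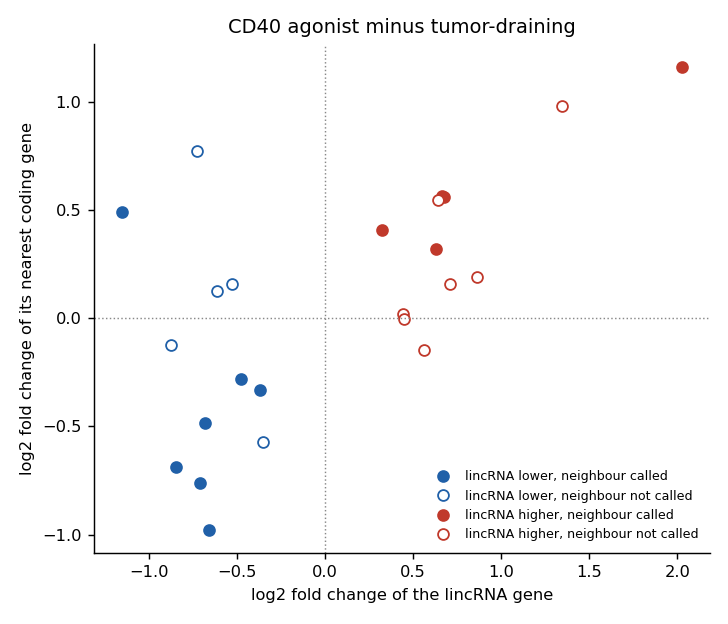
Log2 fold change (agonist minus tumor-draining) of the nearest protein-coding gene against that of the lincRNA gene, for the 24 called lincRNA genes with a tested neighbour, filled where the neighbour was called too. Filled points lie in the same direction for 11 pairs and in opposite directions for 1, F730311O21Rik with Tmcc2.

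Markers of cell types and states moved with the agonist as well. Of the 10 mature dendritic cell markers 8 were higher than in tumor-draining nodes, and their sum was 5994 to 8998 CPM in agonist against 2633 to 4201 CPM in tumor-draining libraries. Of the 13 conventional dendritic cell markers 9 were lower and 1 higher, and of the 7 plasmacytoid dendritic cell markers 5 were lower, with sums of 251 to 541 CPM against 356 to 834 CPM. Of the 20 type I interferon response genes 12 were higher. Of 10 monocyte and macrophage markers 4 were higher and 2 lower, and their sum was 5734 to 7427 CPM against 4326 to 4925 CPM, without overlap. Of 10 natural killer cell markers 5 were higher and 1 lower, with sums of 128 to 191 CPM against 140 to 158 CPM. The part of these shifts in the lincRNA changes was not tested.

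Against healthy nodes, agonist-treated tumor-draining nodes had 10 of the 142 genes higher (7.04%) and 36 lower (25.4%), against 11.7% and 8.46% of all genes tested. Of all genes at 5 CPM or more, 20.1% were higher and 11.1% lower. The median log2 fold change of the 142 was -0.22 against -0.03 over all genes tested. Without the block 2 were higher and 5 lower (4.25% and 2.03% of all genes tested), and over the leave-outs 7 to 12 were higher and 26 to 43 lower. Scaling by column totals in place of TMM changed the split of calls over all genes from 2774 higher and 2007 lower to 2038 and 2982, and from 954 and 541 to 598 and 746 in tumor-draining against healthy nodes. The 142 genes then had 9 higher and 49 lower, and 0 and 30, more lower than higher under both scalings. In 10 of the 142 genes all agonist libraries lay below all healthy ones and in 4 above, against 4.75% and 7.60% of all genes tested. Marker lists differed here as well. Of 10 T cell markers 8 were lower and 1 higher, and of 13 conventional dendritic cell markers 8 were lower and 2 higher. Higher were 8 of 9 neutrophil markers, 9 of 10 mature dendritic cell markers, 18 of 20 type I interferon response genes, and 6 of 10 monocyte and macrophage markers, with 2 of the last lower. Their part in the lincRNA results was not tested.

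Gpr141b (chr13:19727426-19732951, minus strand), typed as lincRNA in GENCODE M21 and as a protein-coding G protein-coupled receptor gene in RefSeq, was the most abundant gene with such a fall. It had 155, 170, 186 and 153 CPM in healthy, 96.7, 119, 119 and 135 CPM in tumor-draining and 42.2, 105, 58.5 and 87.5 CPM in agonist libraries. Both groups from tumor-bearing mice lay below all healthy libraries, although the blocked test did not call it in tumor-draining against healthy nodes (log2 fold change -0.52, adjusted p = 0.16). The log2 fold change from healthy to agonist was -1.25 ± 0.21 (edgeR adjusted p = 0.0042, 0.0055 without the block) and the call held in all 12 leave-outs. F730311O21Rik fell by -1.43 ± 0.24 (adjusted p = 0.0021, 0.068 without the block).

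Gm36723 stood at 13.6, 19.4, 11.6 and 11.1 CPM in agonist libraries, below all healthy ones, with a log2 fold change of -0.84 ± 0.10 (edgeR adjusted p = 0.00021, 0.011 without the block). Gm48544 stood at 3.81, 4.36, 4.07 and 5.66 CPM there, a change of -0.86 ± 0.16 (adjusted p = 0.0023, 0.012 without the block). AI504432 (-0.86) and 1700009J07Rik (-0.90) were the other 2 named genes called lower in both fits. X inactivation center RNAs were lower too, Xist by -0.43 ± 0.07 (adjusted p = 0.0011, 0.64 without the block) and Ftx by -0.46 ± 0.12 (adjusted p = 0.017), the latter lost without healthy replicate 4 or agonist replicate 2 (adjusted p up to 0.062).

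Higher than in healthy nodes were Gm47662 (1.95), AW112010 (1.34), Gm36161 (0.72), Gm42031 (0.59), AU020206 (0.57), Snhg6 (0.56), 2900052N01Rik (0.50), Snhg12 (0.49), 9330175E14Rik (0.45) and 2900097C17Rik (0.25), in log2. AW112010 had an edgeR adjusted p of 1.4e-05 (0.014 without the block) and AU020206 of 0.0067 (0.018 without the block). 2900097C17Rik, or Norad, had 312, 335, 402 and 371 CPM in healthy and 377, 407, 441 and 464 CPM in agonist libraries. It was higher in all 4 prefixes with overlapping groups (adjusted p = 0.021), and the call was lost in 7 of 12 leave-outs and under scaling by column totals. Snhg6 (chr1:9941959-9944118, minus strand) had 7.67, 5.32, 5.83 and 5.78 CPM in healthy and 14.9, 7.29, 8.04 and 7.39 CPM in agonist libraries (adjusted p = 0.0080), with the call lost without agonist replicate 1 or healthy replicate 1 (adjusted p up to 0.055).

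Several abundant lincRNAs were called in no comparison. Gm26809, Gm26917, Gm42418, AC160336.1 and 1700020I14Rik were among the 12 most abundant, and 1700020I14Rik had 140 to 214 CPM over the 12 libraries with log2 fold changes of 0.11 (tumor-draining minus healthy), -0.09 (agonist minus tumor-draining) and 0.02 (agonist minus healthy). Mir142hg had 3.97 to 8.50 CPM in healthy, 3.03 to 9.64 CPM in tumor-draining and 4.11 to 10.1 CPM in agonist libraries. Of 6 tested microRNA hosts, Mir155hg, a lincRNA gene below the 5 CPM minimum and the source of miR-155, rose with the agonist from 2.02, 1.95, 1.06 and 1.27 CPM to 5.59, 6.22, 2.22 and 3.89 CPM, a log2 fold change of 1.45 ± 0.18 (edgeR adjusted p = 0.00038, 0.064 without the block). Mir17hg (-0.74) and Mir99ahg (-0.79) fell.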

How the data were processed

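The deposited tables, made by the authors, give 1 column per library of estimated counts and of TPM per transcript, from Salmon on build mm10 per the submitters' processing notes. The sources used here give no tool version, transcript set or strand setting. RNA was prepared with a Qiagen RNeasy Plus Micro kit and a directional NEBNext Ultra II kit, per the labels' protocols. Transcripts were summed to genes by GENCODE M21 identifiers, which matched 131974 of 132374 transcripts, and sums were rounded for testing. The 400 unmatched transcripts held 0.116% to 0.147% of counts. The 142 genes and all lists were chosen with earlier results of these data known.

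Tests used edgeR 4.0.16 (glmQLFit, robust, TMM, filterByExpr with a minimum count of 10), with group and title prefix as terms, on all 12 libraries, and Benjamini-Hochberg adjustment over 23729 genes at 0.05. The script was tested on simulated data. CPM by library are TMM-normalised unless means over 12 libraries are given. The ± of a log2 fold change is a standard error from the F statistic. Fit residual degrees of freedom were 6 and the biological coefficient of variation 20.7%.

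Deviations from group means correlated at 0.20 to 0.47 in all 12 pairs of libraries with 1 prefix, against a median of -0.24 over 36 other pairs, so the prefix was kept as a block. No 2 libraries of a group agreed within sampling noise (lowest chi-square per degree of freedom 27.7). Alternatives were DESeq2 1.42.0, limma 3.58.1 (voom), other scalings, no filter, no block, other minimum levels, leaving out each library and, chosen after seeing the data, replicates 1 and 2 or 3 and 4 alone. Near-identical transcripts were found with BLAST 2.17.0+ (at least 95% identity over 100 bases).

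Genes named are the 12 of highest level, up to 10 called higher and 10 called lower of largest change per comparison, the list genes, and those beside the 5 CPM minimum; exceptions are said to be so in the text. The lists were snoRNA hosts, microRNA hosts, the X inactivation center and lncRNAs described by name, plus markers of cell types and the type I interferon response. Of 16 tested lncRNAs described by name, 2 were lower in tumor-draining than in healthy nodes (Lncpint and Miat), 2 were higher with the agonist than in tumor-draining nodes (AW112010 and Gm14005), and 4 were higher and 3 lower with the agonist than in healthy nodes. Of 3 tested X inactivation center genes, 1, 0 and 2 were lower in the 3 comparisons, and 0 higher.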

Additional observations from a re-analysis of the deposited data

Results flagged for a closer look

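Of 144 sets of 4 values (48 named genes in 3 groups), 11 held a library whose gap to the nearest other library took up more of the group's range than Dixon's critical value for 4 samples allows. Chance gives about 1 in 20. AC160336.1 had 748 CPM in tumor-draining replicate 3, above the 495 to 524 CPM of the other 3 libraries of its group. Gm26778 had 138 CPM in agonist replicate 2, below the 182 to 187 CPM of the other 3 libraries of its group. AW112010 had 406 CPM in agonist replicate 1, above the 186 to 218 CPM of the other 3 libraries of its group. Gm48544 had 6.09 CPM in tumor-draining replicate 2, above the 5.12 to 5.16 CPM of the other 3 libraries of its group. Gm36161 had 41.3 CPM in healthy replicate 1, above the 26.9 to 28.2 CPM of the other 3 libraries of its group. 2900052N01Rik had 12.8 CPM in agonist replicate 1, below the 23.2 to 24.4 CPM of the other 3 libraries of its group. Gm29562 had 4.16 CPM in agonist replicate 1, below the 7.89 to 8.57 CPM of the other 3 libraries of its group. C530050E15Rik had 9.35 CPM in healthy replicate 2, above the 6.18 to 6.61 CPM of the other 3 libraries of its group. C530050E15Rik had 11.1 CPM in tumor-draining replicate 2, above the 5.07 to 5.81 CPM of the other 3 libraries of its group. Snhg6 had 14.9 CPM in agonist replicate 1, above the 7.29 to 8.04 CPM of the other 3 libraries of its group. Gm34788 had 6.55 CPM in tumor-draining replicate 4, above the 4.94 to 5.12 CPM of the other 3 libraries of its group.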

How the results depend on the processing

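Depth was similar across groups, but the spread between libraries was estimated with 6 residual degrees of freedom, so small differences may have gone undetected. Directions of all called named genes were kept under every alternative run. Without the replicate block (the pairing by title prefix), the 142 genes had 0 higher and 0 lower in tumor-draining against healthy nodes, 2 and 0 with the agonist against tumor-draining nodes, and 2 and 5 with the agonist against healthy nodes, and all genes had 43 and 4, 438 and 197, and 1009 and 481. With replicates 1 and 2 only, lower calls among the 142 numbered 6, 4 and 21 in these comparisons, and all genes had 273 lower, 898 higher and 584 lower, and 1027 lower. With replicates 3 and 4 only, the 142 had 0 higher and 0 lower, 3 and 2, and 4 and 7, and all genes 8 and 0, 346 and 227, and 818 and 369. With column totals, tumor-draining against healthy nodes had 0 of the 142 and 598 of all genes higher. DESeq2 gave 2 of the 142 higher there, with 2052 higher and 854 lower of all genes, and 2362 of all genes lower with the agonist against tumor-draining nodes. A minimum of 10 CPM left 72 genes, with 12, 6 and 18 lower, and a minimum of 5 TPM left 112, with 14, 7 and 18 lower, since fewer or other genes were counted. Leave-one-out ranges for the 142 were 0 to 1 higher and 2 to 26 lower, 8 to 15 and 6 to 15, and 7 to 12 and 26 to 43. For all genes they were 191 to 1131 and 55 to 730, 945 to 1636 and 1021 to 1607, and 1679 to 2931 and 1333 to 2176. Except where fewer genes or samples were used, the cause was not tested.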

Other observations

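The replicate difference seen in 74 of the 142 genes was also present in less abundant lincRNA genes: of 1365 that passed the filter below 5 CPM, 968 had a mean in replicates 1 and 2 at least 0.5 log2 above that in replicates 3 and 4, against 223 of 10512 protein-coding genes at 5 CPM or more. Among these less abundant lincRNA genes, 21 were higher and 13 lower with the agonist than in tumor-draining nodes by the blocked edgeR test. Gm14005 was 1 of them, at 2.66, 2.60, 2.95 and 2.73 CPM in tumor-draining and 5.34, 3.8, 8.06 and 4.44 CPM in agonist libraries, without overlap, a log2 fold change of 0.94 ± 0.18 (edgeR adjusted p = 0.0043, 0.049 without the block). Malat1 and Neat1, the nuclear RNAs left out of the group, were lower in tumor-draining than in healthy nodes in all 4 prefixes and higher with the agonist than without it in all 4, by 0.76 ± 0.12 and 0.50 ± 0.10 in log2 (edgeR adjusted p = 0.0019 and 0.0063, 0.61 and 0.74 without the block). These comparisons share the tumor-draining libraries. Over the same step the 142 genes had a median log2 fold change of 0.02.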
